A study of Mus musculus with 6 samples.

Results

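The genes followed here belong to insulin-like growth factor signalling, measured in NIH3T3 cells, an established mouse embryonic fibroblast line, with and without added GGCT. They are 10 in all, the ligand gene Igf1, the receptor gene Igf1r, the adaptor genes Irs1 and Irs2, and Igfbp2, Igfbp3, Igfbp4, Igfbp5, Igfbp6 and Igfbp7 of the IGF binding protein family. They were chosen by name with earlier results of these data known, and their probes were found through transcript accessions. The 10 genes had 12 probes, out of 44702 genes or unnamed transcripts and 56570 probes on the array. GGCT, gamma-glutamylcyclotransferase, is an enzyme of glutathione breakdown. The GGCT cells carried it in the retroviral vector pCX4bsr, and the control cells carried the control vector. Both were grown with 2% serum, so every array is of infected cells in low serum. Each group had 3 arrays of total RNA labelled with Cy3. The labels describe stable populations made by infection, without saying whether they were clones or pools or which species' GGCT was used. They also do not say whether infection was repeated for the 3 experiments. P-values measure the spread between the 3 arrays within each group, in a fit without pairing. A difference between the infected populations that is not due to GGCT cannot be told apart from an effect of GGCT.

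IGF1 and IGF2 are secreted growth factors that bind the tyrosine kinase IGF1R. The receptor phosphorylates IRS proteins, which recruit PI3K, and AKT and mTORC1 act below it. Binding proteins hold IGFs outside the cell, and proteases such as pappalysin (PAPP-A) release them by cutting binding proteins. Fibroblasts both secrete IGF binding proteins and respond to IGF1.

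Of the 10 genes, 5 fell in GGCT cells, none rose, 3 did not pass the test and 2 were too dim to be tested. The ligand Igf1, the adaptor Irs1 and the binding proteins Igfbp4, Igfbp6 and Igfbp7 were lower on all 3 GGCT arrays than on any control array. Their falls ran from 1.58-fold for Irs1 to 5.92-fold for Igfbp7, and Igf1 was at least 4.79-fold lower. That bound holds for the main background treatment, and with another (normexp) the log2 difference of Igf1 was -0.92, smaller than the bound. Such full separation of the groups, in either direction, was seen for 49.3% of all genes tested. Igf1r, Irs2 and Igfbp3 did not pass, and Igfbp2 and Igfbp5 lay near or under background. Over all 23774 genes tested with limma, 34.8% were called and 17.3% were called lower at a Benjamini-Hochberg adjusted p under 0.05. The median difference of the 8 tested members was -0.74 on the log2 scale, against 0.02 over all genes tested. Setting Igf1 to its bound could not change this median, because Igf1 stayed among the lowest members. Igf1 passed the filter on dim probes only through the control arrays, so it had to differ.

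The windows just before the start sites of the 5 genes that fell are shown because they let a reader compare what these genes share in sequence. Each is the 250 bases before the RefSeq start (GRCm38.p6), read 5′ to 3′ on the gene's strand. Capitals mark matches, on either strand, to 7 motifs. Among general promoter elements these were the TATA box with the letters TATAAA, the GC box with the letters GGGCGG and the CCAAT box with the letters CCAAT. Among sites of named factors they were the STAT site written TTCNNNGAA, the AP-1 site written TGANTCA, the FOXO site written GTAAACA and the ATF4 site, or CARE, written TGATGNAA.
Igf1, chr10:87860861-87861110, plus strand: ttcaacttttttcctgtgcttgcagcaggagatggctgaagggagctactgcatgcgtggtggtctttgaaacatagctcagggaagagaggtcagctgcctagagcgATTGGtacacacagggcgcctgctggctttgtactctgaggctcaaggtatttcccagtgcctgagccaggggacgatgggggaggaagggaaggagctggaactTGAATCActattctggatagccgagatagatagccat
Irs1, chr1:82291440-82291689, minus strand: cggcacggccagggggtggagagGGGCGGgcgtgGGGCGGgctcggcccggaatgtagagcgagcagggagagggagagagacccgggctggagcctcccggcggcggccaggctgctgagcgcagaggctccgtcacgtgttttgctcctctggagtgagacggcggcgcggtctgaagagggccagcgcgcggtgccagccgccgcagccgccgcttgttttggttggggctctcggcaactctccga
Igfbp4, chr11:99040994-99041243, plus strand: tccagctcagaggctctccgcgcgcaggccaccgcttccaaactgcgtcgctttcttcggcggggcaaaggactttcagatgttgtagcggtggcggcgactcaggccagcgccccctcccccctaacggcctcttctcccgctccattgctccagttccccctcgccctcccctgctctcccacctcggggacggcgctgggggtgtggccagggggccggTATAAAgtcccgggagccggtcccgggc
Igfbp6, chr15:102143936-102144185, plus strand: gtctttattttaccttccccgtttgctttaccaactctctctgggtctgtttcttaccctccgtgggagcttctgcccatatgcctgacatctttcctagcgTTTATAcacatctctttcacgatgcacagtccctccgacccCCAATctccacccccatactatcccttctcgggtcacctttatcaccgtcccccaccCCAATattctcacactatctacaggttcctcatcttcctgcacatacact
Igfbp7, chr5:77408046-77408295, minus strand: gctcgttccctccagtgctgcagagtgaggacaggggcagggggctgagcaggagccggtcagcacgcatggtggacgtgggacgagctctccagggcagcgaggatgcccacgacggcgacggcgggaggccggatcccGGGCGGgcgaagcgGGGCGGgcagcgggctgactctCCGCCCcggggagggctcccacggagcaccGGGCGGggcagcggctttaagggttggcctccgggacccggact

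No motif occurred in all 5 windows, and no bases fell in overlapping matches. Igfbp4 had TATAAA on its own strand, 28 bases before the start. Igfbp6 had TATAAA on the opposite strand 148 bases before the start, and CCAAT at 107 and 50 bases. Igfbp7 held 4 matches to GGGCGG, at 110, 96, 74 and 44 bases before the start, and Irs1 held 2, at 227 and 216. Igf1 had CCAAT on the opposite strand at 142 bases and TGANTCA at 37. None of the 5 held the STAT, FOXO or CARE letters in this window. Over the 32841 promoter windows of the same length, 12.4% held TATAAA, 32.7% GGGCGG, 33.9% CCAAT and 6.75% TGANTCA, against 7.02% for TTCNNNGAA, 3.17% for GTAAACA and 3.45% for TGATGNAA. G and C made up 74.0% of the Igfbp7 window, 72.4% of Irs1 and 69.2% of Igfbp4, but 52.8% of Igf1 and 49.6% of Igfbp6. The median over all windows was 52.4%, with 10% of windows above 69.2%. CpG dinucleotides split the genes the same way, with 28 in Irs1, 26 in Igfbp7 and 22 in Igfbp4 against 7 in Igfbp6 and 5 in Igf1, and a median of 6 over all windows. High values were not particular to genes that fell. Igf1r, Irs2 and Igfbp3, which were not called, had 77.6%, 72.8% and 73.2% G and C and 42, 34 and 32 CpG dinucleotides. GGGCGG also occurred in the windows of Igf1r and Irs2, but not in that of Igfbp3. A match is a description of these letters and not a bound site.

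Levels below are log2 intensities relative to each array's 75th percentile, so 0 is the level below which 75% of probes lay on that array. That percentile was between 380.0 and 471 intensity units, and the share of probes well above background ranged from 54.6% to 61.7%. Ggct itself was -0.57, -0.72 and -0.66 on the control arrays and -0.14, 0.20 and -0.16 on the GGCT arrays, a difference of 0.62 ± 0.12 (SE, limma adjusted p = 0.0111) that did not pass without replicate number 2 (limma adjusted p = 0.0729) or 3 (limma adjusted p = 0.1002), or with no filter on dim probes (limma adjusted p = 0.0504). Ggct was read by 1 probe. Whether that probe reads the GGCT carried in the vector was not tested, so the difference does not give the level of added GGCT. Replicate 1 of both groups shared a slide and a scan, and replicates 2 and 3 shared another. All 10 fibroblast marker genes were well above background on all 6 arrays. Their summed level (log2 of the summed intensities relative to that percentile) ran from 10.98 to 11.26 in control cells and from 10.60 to 10.92 in GGCT cells. Of these markers 4 were called lower (Col1a1, Col1a2, Col3a1 and Pdgfrb), 1 higher (Pdgfra) and 5 were not called. Over all genes tested 17.3% were called lower and 17.5% higher. Markers of other cell types were mixed. Epcam and Cdh1 of epithelium, Ptprc, Adgre1 and Lyz2 of leukocytes and macrophages, and Kdr and Tek of endothelium were above background on no array. Krt8, Cldn4 and Esrp1 of the epithelial list and Cd68, Csf1r, Cd14 and Itgam of the leukocyte list were above it on all 6 arrays, with Krt8 and Cldn4 called higher and Cd68 called lower. Of the endothelial list, Pecam1 was above background on all 6 arrays and called higher. Cdh5 was above it only on the 3 GGCT arrays (at least 2.18-fold higher) and Vwf only on the 3 control arrays (at least 1.44-fold lower in GGCT cells). Summed over whole lists, epithelial markers (3 of 7 above background on all arrays) ran from 3.78 to 4.02 in control and from 4.25 to 4.48 in GGCT cells. Endothelial markers (1 of 6) ran from -2.39 to -2.17 and from -1.83 to -1.53, and leukocyte markers (4 of 7) from 4.67 to 5.12 and from 4.65 to 4.98. The part of these shifts in the results below was not tested. In bulk RNA, fewer cells that express a gene and less RNA per cell cannot be told apart.

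Igf1 encodes the main ligand of IGF1R. Its probe read -2.66, -2.84 and -2.48 on the control arrays 1 to 3. It read -6.61, -7.27 and -5.60 on the GGCT arrays, where it was not well above background on any. Every control array lay above every GGCT array, and the ligand was measured only in control cells. The control mean was -2.66 ± 0.18 (SD, n = 3) and the measured GGCT mean -6.49 ± 0.84 (SD, n = 3). Set against the background floor, Igf1 was at least 4.79-fold lower in GGCT cells. The fit used the measured values and not the bound (limma adjusted p = 0.00124), and Igf1 was tested only because its control arrays were above background. The measured difference was -3.95 within slide 1 and -3.77 within slide 2, but -0.92 when the background was corrected with normexp, with an offset of 50 and quantile normalization, under which it also passed (limma adjusted p = 0.000153). That last value is smaller than the bound, so the direction held while the size depended on how background was treated.

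**Figure D1:**
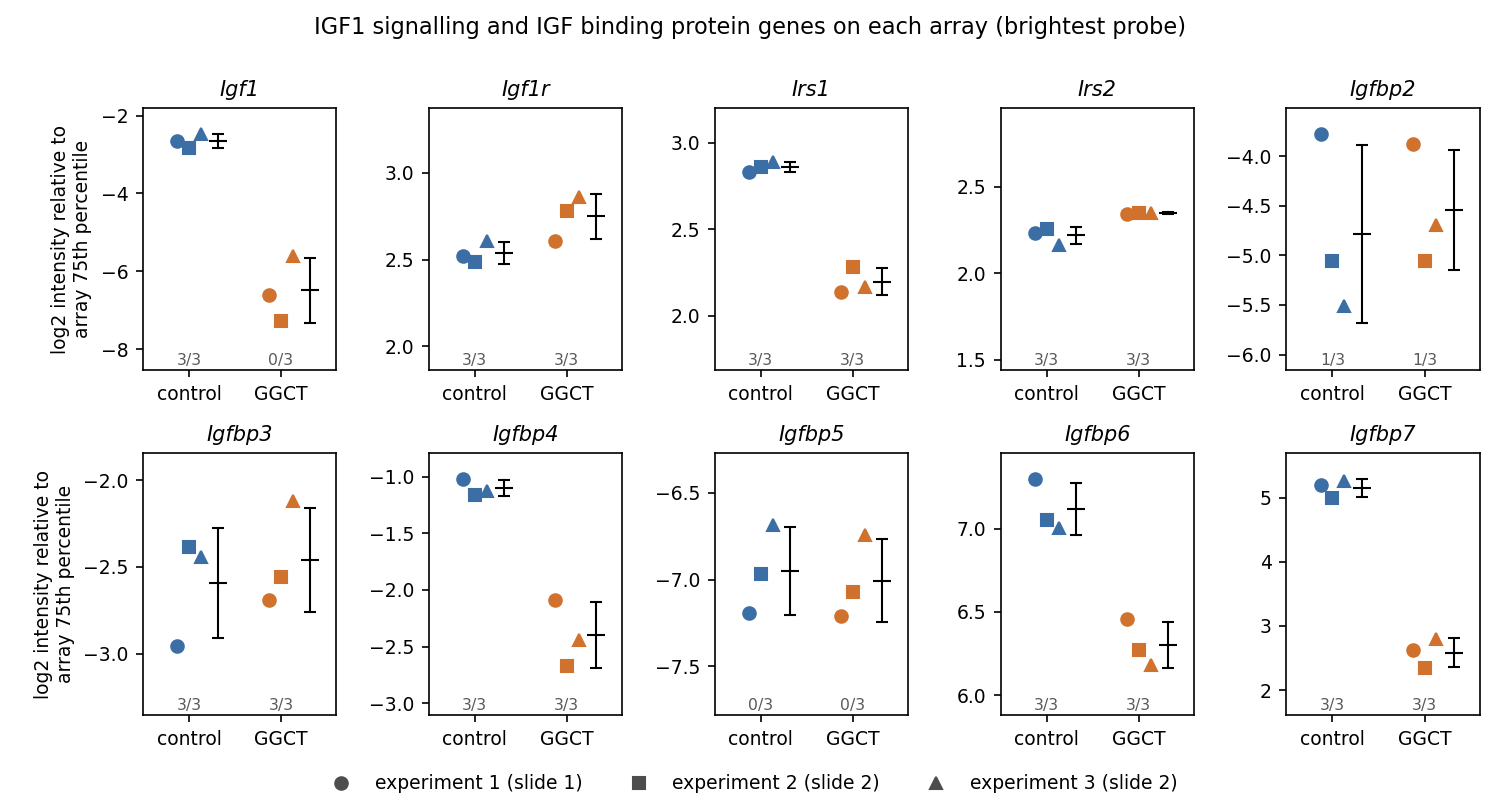
Log2 intensity relative to each array's 75th percentile (vertical axis) for the 10 member genes on the 3 control and 3 GGCT arrays, with the mean and SD of each group in black, each panel on its own axis range, and point shapes for the experiments. The figures under the points count arrays well above background, and Igf1, Irs1, Igfbp4, Igfbp6 and Igfbp7 show all GGCT points under every control point.

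Igf1r encodes the receptor that both IGFs use. Its brighter probe read 2.52, 2.49 and 2.61 in control cells and 2.61, 2.78 and 2.86 in GGCT cells. Unrounded, the GGCT arrays lay above the control arrays without overlap, and GGCT replicate 1 lay nearest to the controls. The means were 2.54 ± 0.06 and 2.75 ± 0.13 (SD, n = 3 each), and the difference of 0.21 ± 0.10 (SE) did not pass (limma adjusted p = 0.147). Its 95% interval ran from -0.03 to 0.45. The other Igf1r probe differed by 0.23 ± 0.08 (SE) in the same direction and did not pass either (limma adjusted p = 0.0745 over all probes, of which 35.2% were called). With arrays weighted by their quality Igf1r passed (limma adjusted p = 0.0197).

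Irs1 encodes an adaptor that couples IGF1R and the insulin receptor to PI3K. It read 2.83, 2.86 and 2.89 in control cells and 2.14, 2.28 and 2.17 in GGCT cells. All GGCT arrays lay lower, and the gap between groups was several times the spread within either. The means were 2.86 ± 0.03 and 2.20 ± 0.08 (SD, n = 3 each). The difference of -0.66 ± 0.08 (SE) is a 1.58-fold fall (limma adjusted p = 0.00199), with -0.69 on slide 1 and -0.65 on slide 2. Without replicate number 3 of both groups it no longer passed (limma adjusted p = 0.0714).

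Irs2 encodes the related adaptor. It read 2.23, 2.26 and 2.16 in control cells and 2.34, 2.35 and 2.35 in GGCT cells. The GGCT arrays were close together and slightly above all controls, opposite in sign to Irs1. The difference was 0.13 ± 0.07 (SE), with a 95% interval from -0.05 to 0.31, and did not pass (limma adjusted p = 0.233).

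Igfbp7 encodes a secreted protein of low affinity for IGFs that is related to the classical binding proteins. It read 5.19, 5.00 and 5.26 in control cells and 2.62, 2.34 and 2.79 in GGCT cells. All 6 arrays were well above background, and the groups stood far apart. The means were 5.15 ± 0.13 and 2.58 ± 0.23 (SD, n = 3 each). The difference of -2.56 ± 0.14 (SE) is a 5.92-fold fall (limma adjusted p = 0.000127). Slide 1 alone gave -2.57 and slide 2 alone -2.56. Igfbp7 passed under all 22 alternatives, with differences from -2.67 to -2.44.

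Igfbp4 encodes a binding protein that restrains IGF action until pappalysin cuts it. Its brighter probe read -1.03, -1.16 and -1.13 in control cells and -2.09, -2.67 and -2.44 in GGCT cells. The GGCT arrays were all lower and more spread than the controls, with GGCT replicate 1 the highest of them. The means were -1.10 ± 0.07 and -2.40 ± 0.29 (SD, n = 3 each), and the difference of -1.29 ± 0.16 (SE) is a 2.45-fold fall (limma adjusted p = 0.00199). The second probe read -2.17, -1.85 and -1.83 in control cells and -3.25, -3.48 and -3.39 in GGCT cells. Both probes separated the groups, and the second differed by -1.42 ± 0.13 (SE, limma adjusted p = 0.000603 over all probes). For the brighter probe slide 1 gave -1.06 and slide 2 gave -1.41, and without replicate number 3 it no longer passed (limma adjusted p = 0.0533).

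Igfbp6 encodes a binding protein with a preference for IGF2. It read 7.30, 7.05 and 7.00 in control cells and 6.46, 6.27 and 6.18 in GGCT cells. Replicate 1 was the highest array in both groups, and the groups did not overlap. The means were 7.12 ± 0.16 and 6.30 ± 0.14 (SD, n = 3 each). The difference of -0.81 ± 0.12 (SE) is a 1.76-fold fall (limma adjusted p = 0.00402), with -0.84 on slide 1 and -0.80 on slide 2. Without replicate number 2 (limma adjusted p = 0.0633) or number 3 (limma adjusted p = 0.0627) it no longer passed.

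Igfbp3 encodes the main carrier of IGFs in serum. It read -2.96, -2.38 and -2.44 in control cells and -2.69, -2.56 and -2.12 in GGCT cells. The groups overlapped, and control replicate 1 was the lowest of the 6 arrays. The difference of 0.14 ± 0.22 (SE) did not pass (limma adjusted p = 0.676), and its 95% interval from -0.39 to 0.66 spans a change in either direction. Without control replicate 1 it was -0.05, and without GGCT replicate 3 it was -0.03.

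Igfbp2 and Igfbp5 encode further binding proteins of the family. Igfbp2 was well above background on 1 control and 1 GGCT array, both replicate 1, and read -3.78, -5.06 and -5.51 in control cells and -3.88, -5.05 and -4.70 in GGCT cells. Igfbp5 was above background on no array, with values from -7.19 to -6.69 in control cells and from -7.21 to -6.74 in GGCT cells. Both genes overlapped between groups, and a difference in either was not detectable at this signal.

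Control and GGCT arrays were fully separated for 7 of the 8 tested members, as they were for 49.3% of all genes tested. In an exact permutation test (2-sided) each of these 7 reached p = 0.1, and no smaller p is possible with 3 arrays a group. The members called lower by at least 2-fold in the measured value were 3 (Igf1, Igfbp4 and Igfbp7), against 5.3% of all genes tested. Igf1 is counted among both the 7 and the 3, although it passed the filter only through the control arrays and so had to differ.

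**Figure D2:**
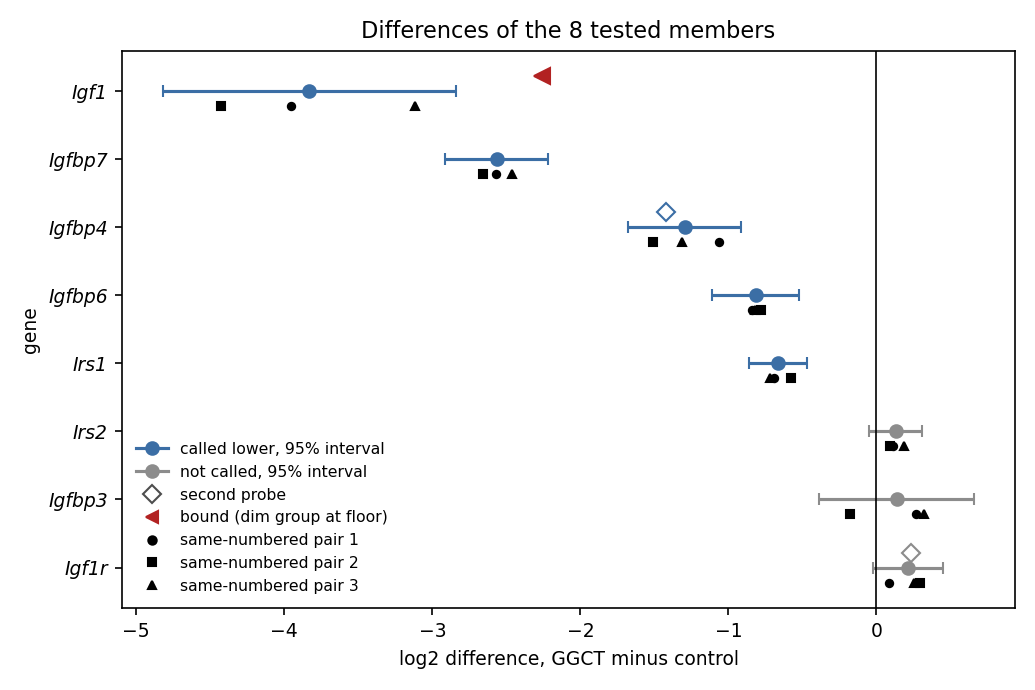
Log2 difference, GGCT minus control (horizontal axis), for the 8 tested members. Large points and bars are the fitted difference with its 95% interval, diamonds are second probes, small black points are same-numbered pairs, and the red triangle is the bound for Igf1. The 5 genes in blue lie left of 0 in all 3 pairs, and the intervals of Irs2, Igfbp3 and Igf1r include 0.

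The other genes that supply, carry or free IGFs were read from a list of 10, of which 9 were on the array and 5 were tested. Of these, 1 rose and 2 fell, where 17.5% of all genes tested were called higher and 17.3% lower. The largest difference on this list was that of Pappa, the pappalysin gene, whose protein cuts IGFBP4 and IGFBP5. Pappa read 2.73, 2.70 and 2.76 in control cells and -3.07, -4.32 and -3.21 in GGCT cells. It was well above background on all 6 arrays, and the lowest control array lay above the highest GGCT array by far more than either group's spread. The difference of -6.26 ± 0.33 (SE) is a 76.8-fold fall (limma adjusted p = 0.000102), measured by 1 probe, and it was -4.73 with normexp background correction.

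Igf2, the gene of the other IGF ligand, changed in the opposite direction to Igf1. It read -0.60, -0.61 and -0.52 in control cells and 1.18, 0.67 and 1.11 in GGCT cells. The GGCT arrays were all higher, by 1.56 ± 0.15 (SE), a 2.95-fold rise (limma adjusted p = 0.000837), and the second probe rose by 1.31 ± 0.23. Ghr encodes the growth hormone receptor, which drives Igf1 transcription in liver and other tissues. It read 2.54, 2.18 and 2.34 in control cells and 1.52, 1.29 and 1.45 in GGCT cells, a 1.91-fold fall without overlap (limma adjusted p = 0.00269). Its other probes differed by -0.80 and -0.84. Without replicate number 3 Ghr no longer passed (limma adjusted p = 0.0627). Stc2, an inhibitor of pappalysin, differed by -0.10 (limma adjusted p = 0.645), and Htra1, a secreted protease that can cut binding proteins, by 0.05 (limma adjusted p = 0.731). A much dimmer second Htra1 probe differed by -0.97, with overlap between the groups. It was above background on 2 control arrays and no GGCT array, so it was not tested. Igfbp1, Igfbpl1, Pappa2 and Stc1 were not tested because they were too dim. Stc1 was above background on no array, yet its measured means were -5.27 in control and -7.04 in GGCT cells, without overlap.

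**Figure D3:**
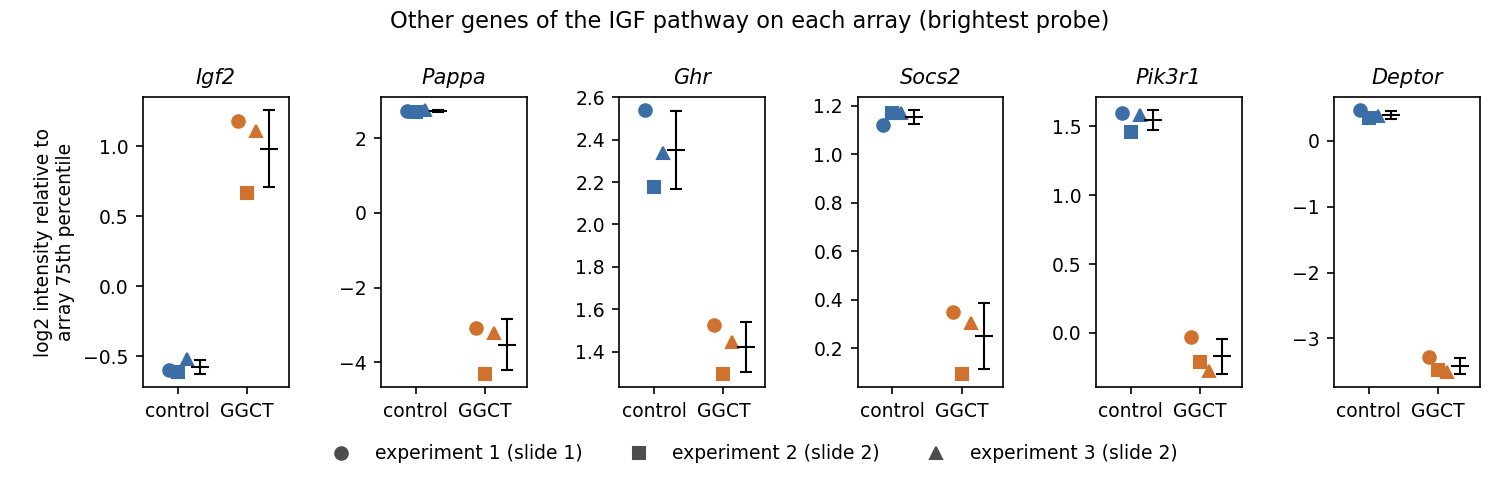
Log2 intensity relative to each array's 75th percentile (vertical axis) for pathway genes outside the 10 members, on the 3 control and 3 GGCT arrays, with the mean and SD of each group in black and point shapes for the experiments. Pappa and Deptor drop from above 0 to below -3, and Igf2 goes from below 0 to above it.

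Of 15 receptors, adaptors and their inhibitors, 14 were tested, 7 rose and 1 fell, with a median of 0.30. Over all genes tested 17.5% were called higher. Socs2, a feedback inhibitor of growth hormone receptor signalling, was the one that fell. It read 1.12, 1.17 and 1.17 in control cells and 0.35, 0.09 and 0.31 in GGCT cells, a difference of -0.90 ± 0.10 (SE, limma adjusted p = 0.00125). Its second probe differed by -0.79. Grb14, an adaptor that inhibits the insulin receptor, rose 2.20-fold (1.14 ± 0.13, SE, limma adjusted p = 0.00158). Gab1, a docking protein for PI3K, rose by 0.70 ± 0.07 (SE, limma adjusted p = 0.00127). Socs3, a cytokine-induced inhibitor, also rose by 0.70 ± 0.09 (SE, limma adjusted p = 0.00274). Without replicate number 3 Gab1 (limma adjusted p = 0.0599) and Socs3 (limma adjusted p = 0.0709) no longer passed. Igf2r, which takes up and clears IGF2 and was picked after its value was seen, rose by 0.44 ± 0.08 (SE, limma adjusted p = 0.00856). Insr, the insulin receptor gene, differed by -0.06 (limma adjusted p = 0.582).

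All 26 genes of the PI3K, AKT and mTOR list were tested. They split into 4 that rose and 5 that fell, 34.6% in all, near the 34.8% of all genes, and their median was 0.04. With the replicate number as a block, under which 53.4% of all genes were called, 8 rose and 7 fell. Deptor, an inhibitor of mTOR, read 0.47, 0.35 and 0.38 in control cells and -3.29, -3.48 and -3.50 in GGCT cells. Arrays within each group were tight around a 14.1-fold fall (-3.82 ± 0.09, SE, limma adjusted p = 1.36e-05). Its second probe differed by -3.57, and normexp background correction gave -2.44. Pik3ip1, which inhibits PI3K, fell 3.57-fold (limma adjusted p = 0.000134). Pik3r1, the regulatory p85 alpha subunit that binds phosphorylated IRS proteins, fell 3.28-fold (limma adjusted p = 0.000143). Eif4ebp1, a translation repressor that mTORC1 phosphorylates, fell 1.54-fold (limma adjusted p = 0.00275) and did not pass without replicate number 3 (limma adjusted p = 0.0762).

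FOXO transcription factors are held out of the nucleus by AKT. Of 18 FOXO factor and target genes 16 were tested, 3 rose and 5 fell, with a median of 0.01, where 17.5% of all genes tested were called higher and 17.3% lower. With the replicate number as a block 5 rose and 7 fell, where 53.4% of all genes were called in either direction. Pdk4, an inhibitory kinase of pyruvate dehydrogenase, fell 4.25-fold (-2.09 ± 0.14, SE, limma adjusted p = 0.000251). Bcl2l11, the pro-apoptotic BIM gene, rose 2.41-fold (1.27 ± 0.11, SE, limma adjusted p = 0.000525). Fbxo32, a ubiquitin ligase gene, fell 1.80-fold (limma adjusted p = 0.00263). Foxo6 was above background only in control cells and at least 2.22-fold lower in GGCT cells, so it too passed the filter through the group where it was high. The fit used its measured values and not the bound (limma adjusted p = 0.00221). With normexp its difference was -0.51, smaller than the bound. The listed genes moved in both directions.

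**Figure D4:**
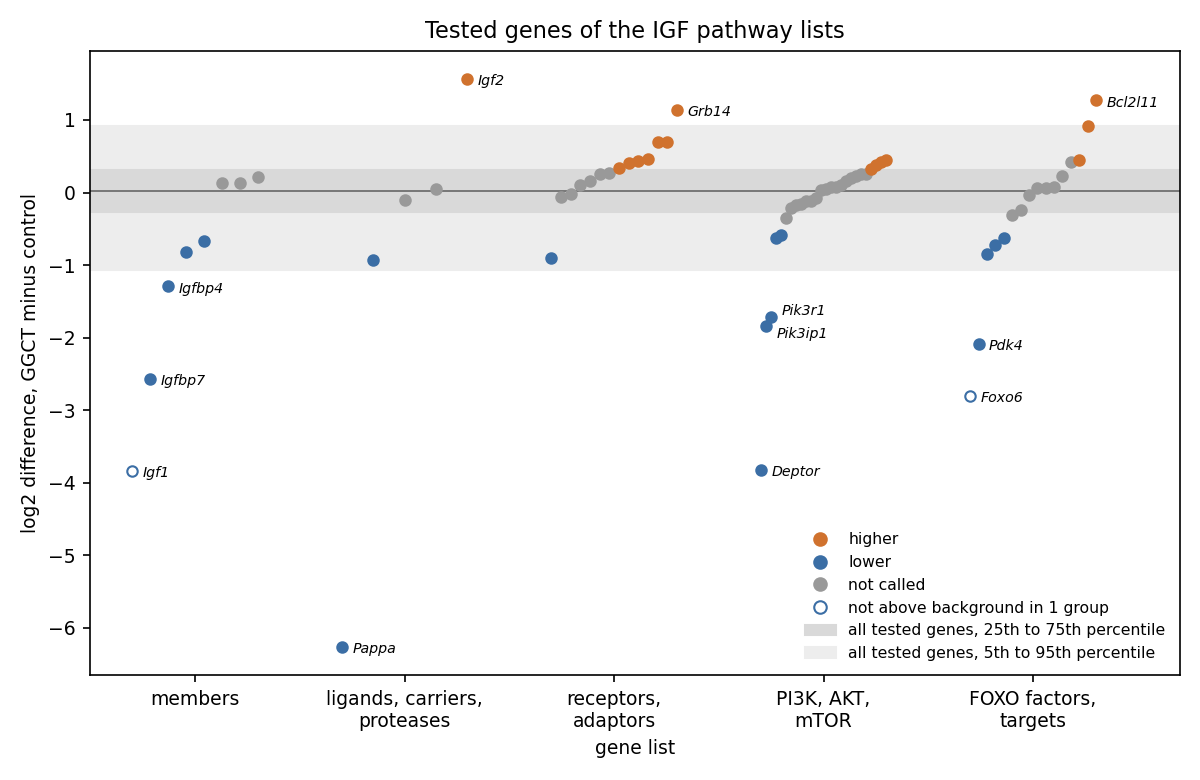
Log2 difference, GGCT minus control (one point per tested gene), for the 10 members and the 4 pathway lists, coloured by call, with open points for genes not above background in 1 group and grey bands for the percentiles of all tested genes. The member column holds no gene called higher, while the receptor and adaptor column holds 7 called higher and 1 called lower.

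Along the chromosomes Igfbp2 and Igfbp5 are neighbours, and Igfbp3 lies next to Igfbp1, by the order of protein-coding genes in RefSeq. None of these 4 genes was called, and of them Igfbp3 alone was bright enough to be tested. Of 18 distinct neighbours that are not members, 12 were tested, 3 rose and 3 fell, where 17.5% of all genes tested were called higher and 17.3% lower. Both neighbours of Igfbp6 fell with it: Soat2, a cholesterol esterification enzyme gene, by 3.61 (limma adjusted p = 2.23e-05) and Spryd3 by 0.61 on the log2 scale (limma adjusted p = 0.0028). Rhbdd1, next to Irs1, fell by 1.03 on the log2 scale (limma adjusted p = 0.00201). Top2a, a topoisomerase gene of dividing cells next to Igfbp4, rose by 1.10 (limma adjusted p = 0.000732) where Igfbp4 fell, and Tns4 on the other side did not pass (-0.34, limma adjusted p = 0.0884). Adgrl3, next to Igfbp7, was above background only in GGCT cells and at least 3.22-fold higher there, so it had to differ to be tested. The fit used its measured values and not the bound (limma adjusted p = 0.000498). Polr2b on the other side of Igfbp7 differed by 0.24 and did not pass (limma adjusted p = 0.0701). Col4a1, next to Irs2, rose by 0.68 (limma adjusted p = 0.032).

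The genes whose centred log2 values lay nearest to a member over the 6 arrays were found among 13238 named genes measured on every array, by root mean square distance. For Igfbp7 they were Abca1 at 0.0778, Prrx2 at 0.0841 and Pfkp at 0.0958. For Igfbp4 they were Tmem205 at 0.0642, Pilrb1 at 0.0659 and Gpt2 at 0.0772. For Igfbp6 they were Foxl1 at 0.0191, Asns at 0.0238 and Tspo at 0.0396. The distances are in log2 units and describe these 6 arrays.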

How the data were processed

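Scanner files were made by the authors, whose version of Agilent Feature Extraction was 12.1.0.3 per the file headers, and hold background-subtracted spot intensity. The deposited series table holds log2 values that correlate at 1 with the log2 intensity of the same arrays, with column medians from -3.88 to -3.70. It was used as an alternative. Of 62976 spots, 3671 control spots and 578 outlier-flagged spots were left out, no spot was saturated, and spots of 1 probe were averaged. Accessions matched to RefSeq (GRCm38.p6) named 34504 of 56570 probes (60.99%). The array grid uses another build, so array coordinates are not given. The 75th percentile was subtracted per array. A gene is its brightest probe, tested when every array of the control or of the GGCT group had it well above background, with limma 3.58.1 in R 4.3.3 (lmFit, eBayes, 2-sided) and Benjamini-Hochberg adjustment over all genes. For a bound, dim values were first raised to the lowest value well above background on their array, and the mean of the group above background was set against their mean. The procedure was tested on simulated data. The number of arrays limits precision.

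The members and gene lists were chosen with earlier results of these data known. Named genes are the members, Ggct, up to 4 called genes per list with the smallest p, RefSeq neighbours and the 3 nearest genes of 3 members, and others are said to be picked later or complete a list.

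The replicate numbers come from the sample titles. Same-numbered arrays deviated together (correlations across genes 0.731, 0.453 and 0.358), so the numbers were taken to pair the arrays in the replicate-block alternative. The main fit, which gave the calls and shares in the text unless a block is named, left this pairing out. With the block 53.4% of all genes tested were called, against 34.8% in the main fit. A gene that did not pass in the main fit may therefore pass with the block. Arrays of different numbers on slide 2 also correlated (0.299 and 0.342). The 22 alternatives cover normalization, background, filters, probe choice, variance, array weights, blocks, the deposited values and leaving out arrays or pairs. They are not all distinct. Slide 2 alone and leaving out replicate 1 use the same arrays. The deposited values differ from the log2 intensity by a nearly constant shift per array, so they could hardly disagree with the main fit. Normexp (offset 50, then quantile normalization) ran on median signals, the columns the files hold.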

Additional observations from a re-analysis of the deposited data

How the results depend on the processing

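The member calls kept their direction and their side of the threshold under most of the 22 alternatives. The replicate number as a block changed no member's call (Igf1r, limma adjusted p = 0.0596, and Irs2, limma adjusted p = 0.110, stayed above the threshold). Array weights brought in Igf1r at 0.26, which made 1 member higher. Leaving out single arrays changed no member's call, but leaving out both arrays of a number left from 2 to 5 members lower, with 2 without replicate 3. Over the leave-outs Irs1 ranged from -0.71 to -0.63, Igfbp4 from -1.45 to -1.16 and Igfbp6 from -0.89 to -0.73, and Igfbp3 from -0.047 to 0.29, turning to -0.047 without control replicate 1 and to -0.033 without GGCT replicate 3. Over all genes, counts called higher were 2218 with no filter, 6633 with array weights, 6490 with the replicate block, 6562 with the slide block and 771 to 4607 over the leave-outs. Counts called lower were 2493, 6193, 6195, 6191 and 1150 to 4553 in the same order. Ligand-list genes called lower were 3 with no filter and 1 to 2 over the leave-outs. Receptor-list genes called higher were 3 with no filter and 1 to 6 over the leave-outs. PI3K-list genes called higher were 0 with no filter, 8 with array weights, 8 with the replicate block, 9 with the slide block and 0 to 4 over the leave-outs, and those called lower were 3 to 5. FOXO-list genes called higher were 5 with array weights, 5 with the replicate block and 1 to 4 over the leave-outs, and those called lower were 3 to 6. Leaving out control replicate 2 or 3 alone gave 2741 or 2556 genes higher and 1 PI3K-list gene higher each. The cause of these changes was not tested, other than that leave-outs use fewer samples. With a filter over all 6 arrays Igf1 was not tested, so that setting gives it no value. Signal over background limits Igf1, Igfbp2, Igfbp5 and Foxo6.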
